A study of Mus musculus with 55 samples.

Results

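Pyramidal neurons of the mouse prefrontal cortex that carried the transcription factor Bcl11b were set against pyramidal neurons that did not, whatever their label as D1 or D2 cells. The members were chosen by a measured value. Among the 54 cells that passed quality control, of 55 in all, 34 had a read in at least 4000 gene symbols and are called gene-rich here. Of these, 22 held at least 10 CPM of Bcl11b (counts per 1000000 reads assigned to genes in that cell) and are the Bcl11b-positive cells, and the other 12 are the Bcl11b-negative cells. Since the rule read Bcl11b in the same cells and the labels name no animal, each side counts as 1 sample, and the differences below are a description with no test and no replicate check.

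Bcl11b, also known as Ctip2, is a zinc-finger protein that is needed for the axons of corticospinal neurons to reach their targets. It acts downstream of Fezf2 in the programme that sets pyramidal tract neurons of layer 5, which project to the brainstem and spinal cord, apart from intratelencephalic neurons, which project within the cortex and to the striatum. Pyramidal tract neurons of the prefrontal cortex are known for a large current through HCN channels, which open on hyperpolarisation.

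Each library was made from the cytosol of 1 neuron, drawn into a patch pipette. The gene-rich cells were 6 D1 and 6 D2 cells of Fmr1-/y mice, a knockout model of fragile X syndrome, and 9 D1 and 13 D2 cells of mice without the knockout, called wild type here, all 28 to 35 days old. The sources used here do not say how a cell was assigned to D1 or D2. Total counts ran from 2002287 to 7705019 in Bcl11b-positive cells and from 2644138 to 10673072 in Bcl11b-negative cells, with medians of 7194.5 and 6582.5 symbols with a read. Fmr1, the gene disrupted in the knockout, had a read in 0 of 12 knockout cells, which allows a share of up to 25%, and in 18 of 22 wild-type cells.

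Bcl11b-positive cells were found under all 4 labels but in unequal shares. They made up 2 of 6 knockout D1 cells (33.3%, exact 95% Clopper-Pearson interval 4.33 to 77.7%) and 4 of 6 knockout D2 cells (66.7%, 22.3 to 95.7%). Among wild-type cells they made up 3 of 9 D1 cells (33.3%, 7.49 to 70.1%) and 13 of 13 D2 cells (100%, 75.3 to 100%). The intervals cover counting error only and treat cells as independent, although the labels name no animal. They are no test of a difference between labels or genotypes. With no Bcl11b-negative wild-type D2 cell, the Bcl11b difference and the D1 or D2 label cannot be told apart in wild-type cells as a whole, so many differences below are also given without the wild-type D2 cells (9 Bcl11b-positive against 12 Bcl11b-negative cells), a setting chosen after the data were seen. An unlabelled value in brackets after a difference is the one without those cells. Both sides held cells of 29, 30, 31, 32 and 34 days, with 6 against 6 at 32 days. Age went with genotype, however. All gene-rich knockout cells except knockout D1 cell 3, of 31 days, were 32 days old. Wild-type D2 cell 4 was the only gene-rich wild-type cell of 32 days. Values given without the cells of 32 days therefore also leave out nearly all knockout cells, and age and genotype cannot be told apart in them.

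Bcl11b (chromosome 12, 107910403 to 108003602, minus strand, GRCm38) ranged from 31.7 to 595 CPM with a median of 121 CPM in Bcl11b-positive cells. Of the 12 Bcl11b-negative cells, 11 had no read of it and the last, a wild-type D1 cell, had 18 reads or 6.81 CPM. The lowest Bcl11b-positive cell was a wild-type D2 cell. No cell lay between 6.81 and 31.7 CPM, so the choice of 10 CPM fell in a gap. Over the 11905 measured genes (a mean of at least 1 CPM, with reads in 10% or more of the 34 cells), Bcl11b was the only gene whose lowest Bcl11b-positive cell lay above its highest Bcl11b-negative cell, and no gene was separated the other way.

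**Figure D1:**
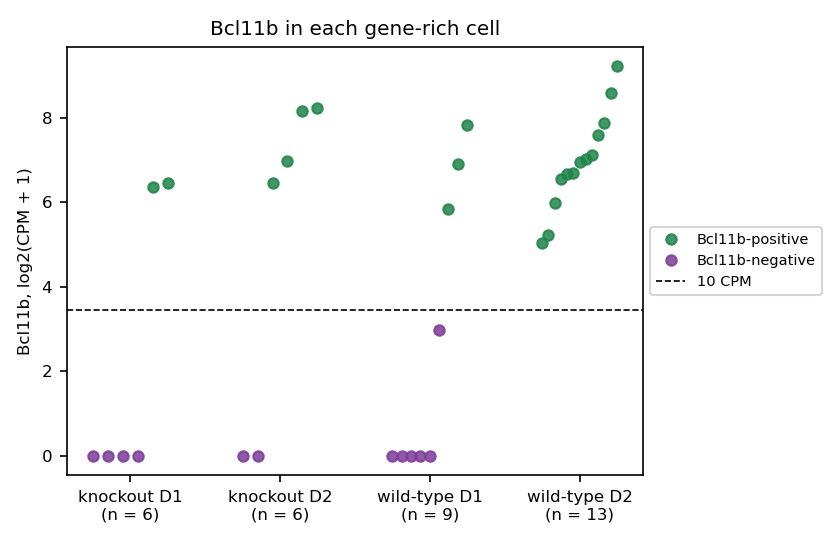
Bcl11b as log2(CPM + 1) in each of the 34 gene-rich cells, by genotype and D1 or D2 label; each point is 1 cell, green for Bcl11b-positive and purple for Bcl11b-negative, and the dashed line marks 10 CPM. The 22 Bcl11b-positive cells lie between 31.7 and 595 CPM, and 11 of the 12 Bcl11b-negative cells lie at 0.

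Differences are given as the mean over cells of log2(CPM + 1) in Bcl11b-positive cells minus that in Bcl11b-negative cells, and a gene is counted as higher or lower where this reaches 2 or -2. The measure weighs presence in many cells more than height in a few. Of the 11905 measured genes, 416 (3.49%) were higher and 407 (3.42%) lower by this count, 49% lay above 0, and the median was -0.03. Without the wild-type D2 cells, 357 (3%) were higher and 1134 (9.53%) lower, 37% lay above 0, and the median was -0.36. Of 71 named genes past 2 in size over all cells, 19 fell under 2 in size when 1 cell was left out and 24 when the cells of 1 age were left out. Within single labels the few cells gave wider spreads. Among knockout D1 cells 13.3% of genes were higher, 26.3% lower and 33.6% above 0, among knockout D2 cells 13.5%, 24% and 41.2%, and among wild-type D1 cells 10.7%, 17.6% and 39.5%.

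Genes known to mark pyramidal tract neurons were higher in Bcl11b-positive cells as a group. Of 21 listed besides Bcl11b, 20 were measured (Slco2a1 was not), 17 lay above 0 and 11 were higher by at least 2, against 49% and 3.49% of all measured genes. None was lower by 2. Their median difference was 2.15, and 1.74 without the wild-type D2 cells, where 18 lay above 0 and 6 were higher. In that setting 37% of all measured genes lay above 0, 3% were higher and the median was -0.36. Bcl11b-positive cells held reads of 7 to 19 of these 20 genes with a median of 15, against 2 to 11 with a median of 8 in Bcl11b-negative cells.

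Of the 3 other genes used as markers of these cells, Pou3f1 set the sides apart most. Pou3f1 (chromosome 4, 124656807 to 124660655, plus strand), a POU-domain factor of layer 5 output neurons, ranged from 0 to 306 CPM with a median of 65.7 CPM in Bcl11b-positive cells, against 0 to 368 CPM with a median of 0 in Bcl11b-negative cells. It had reads in 20 of 22 Bcl11b-positive and 2 of 12 Bcl11b-negative cells, a difference of 4.12 (3.22 without the wild-type D2 cells). The sides overlapped: 2 Bcl11b-positive cells had no read, and 1 Bcl11b-negative wild-type D1 cell was the highest of all 34.

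Fezf2 and Crym were present on both sides. Fezf2 (chromosome 14, 12342094 to 12348189, minus strand), the zinc-finger factor upstream of Bcl11b, ranged from 0 to 848 CPM with a median of 306 CPM in Bcl11b-positive cells, against 0 to 469 CPM with a median of 109 CPM in Bcl11b-negative cells. It had reads in 19 of 22 Bcl11b-positive and 8 of 12 Bcl11b-negative cells and differed by 2.24, by 1.83 without the wild-type D2 cells, by 1.20 without the cells of 32 days and by 1.79 without wild-type D1 cell 13. Its difference was not of one sign across the labels. It was -1.76 among knockout D1 cells, 8.62 among knockout D2 cells, where neither Bcl11b-negative cell had a read, and 0.09 among wild-type D1 cells.

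Crym (chromosome 7, 120186380 to 120202111, minus strand), a thyroid hormone binding protein of subcortically projecting neurons, ranged from 70.5 to 1667 CPM with a median of 419 CPM in Bcl11b-positive cells, against 0 to 1010 CPM with a median of 151 CPM in Bcl11b-negative cells. All 22 Bcl11b-positive and 11 of 12 Bcl11b-negative cells had a read, so Crym differed in level rather than in presence, by 2.08 (2.10 without the wild-type D2 cells). The difference was 1.44 without the cells of 30 days and 1.48 without wild-type D1 cell 13, both under 2, and 3.36 without the cells of 32 days.

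**Figure D2:**
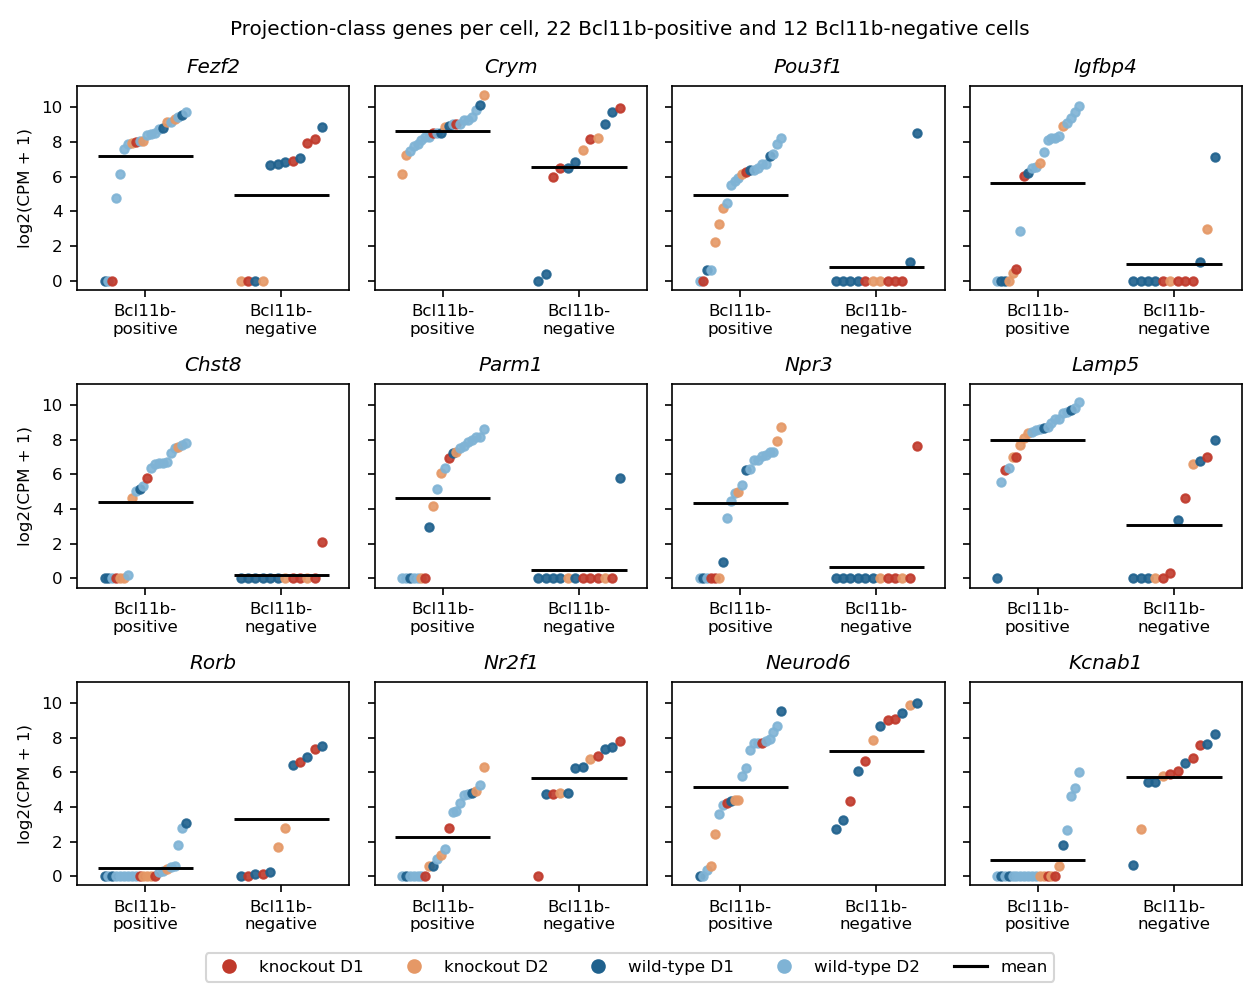
log2(CPM + 1) per cell of 12 genes in the 22 Bcl11b-positive (left) and 12 Bcl11b-negative cells (right) of each panel, sorted by value; colours give genotype and label, and bars the mean. Pou3f1, Igfbp4, Chst8 and Parm1 lie at or near 0 in most Bcl11b-negative cells, and Kcnab1 has a read in 12 of 12 Bcl11b-negative and 6 of 22 Bcl11b-positive cells.

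Several secreted or membrane proteins of the list were nearly absent from Bcl11b-negative cells. Igfbp4, which binds insulin-like growth factors, ranged from 0 to 1068 CPM with a median of 102 CPM in Bcl11b-positive cells, against 0 to 139 CPM with a median of 0 in Bcl11b-negative cells. It had reads in 18 of 22 and 3 of 12 cells and differed by 4.68, and by 2.30 without the wild-type D2 cells, which held its highest levels. Chst8, a sulfotransferase that acts on N-acetylgalactosamine, ranged from 0 to 228 CPM with a median of 47.1 CPM in Bcl11b-positive cells, while 1 of 12 Bcl11b-negative cells had a read, at 3.28 CPM. Its difference was 4.25, and 2.40 without the wild-type D2 cells.

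Parm1, a mucin-like membrane protein, had reads in 15 of 22 Bcl11b-positive cells (up to 393 CPM, median 75.5 CPM) and in 1 of 12 Bcl11b-negative cells at 55.0 CPM, a difference of 4.16 (3.37 without the wild-type D2 cells). Npr3, the clearance receptor of natriuretic peptides, had reads in 16 of 22 Bcl11b-positive cells (up to 429 CPM, median 35.8 CPM) and in 1 of 12 Bcl11b-negative cells at 196 CPM. That cell was a knockout D1 cell, and the Npr3 difference, 3.73 over all cells and 2.57 without the wild-type D2 cells, was -1.91 among knockout D1 cells. Sulf2, an extracellular sulfatase of heparan sulfate, had a read in all 22 Bcl11b-positive cells (median 252 CPM) and in 9 of 12 Bcl11b-negative cells (median 24.9 CPM), a difference of 2.81 and of 1.73 without the wild-type D2 cells.

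The repressor Bcl6, the netrin-family adhesion molecule Ntng1 and Fam84b completed the 11. Bcl6 differed by 2.78 (1.83 without the wild-type D2 cells) with reads in 18 of 22 Bcl11b-positive and 3 of 12 Bcl11b-negative cells. Ntng1 differed by 2.23 (1.50) but by -1.28 among wild-type D1 cells. Fam84b differed by 2.24 (1.74), and by 1.31 without the cells of 29 days; 41.7% of its exon bases overlap an antisense gene, and whether counting used strand is not given, so its value is uncertain.

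The remaining 9 members showed smaller differences. Cntn6, a contactin adhesion molecule, differed by 1.94 (1.18), Crim1 by 1.32 (0.16), the LIM-domain cofactor Ldb2 by 1.09 (1.08), Npnt by 1.03 (0.23), the factor Sox5 by 0.69 (0.34) and Opn3 by 0.67 (1.88). Below 0 lay Diaph3 at -0.18 (-0.59), S100a10 at -0.26 (0.36, above 0) and Pcp4, a calmodulin-binding protein abundant in layer 5, at -0.58 (-0.64). Pcp4 ranged from 0 to 1276 CPM with a median of 182 CPM in Bcl11b-positive cells, against 0 to 1443 CPM with a median of 214 CPM in Bcl11b-negative cells. Exons of Pcp4 (23.7% shared with Igsf5) and Opn3 (24.1% shared with Chml) overlap those of other genes.

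Intratelencephalic and upper-layer genes leaned the other way with exceptions. Of 15 listed, 11 were measured, 3 lay above 0, 1 was higher and 2 were lower by 2, against 3.49% and 3.42% of all measured genes, and the median was -0.68. Without the wild-type D2 cells the median was -1.57, beside -0.36 for all genes. Rorb, a nuclear receptor of layer 4 and intratelencephalic neurons, stayed between 0 and 7.49 CPM with a median of 0 in Bcl11b-positive cells, against 0 to 182 CPM with a median of 4.13 CPM in Bcl11b-negative cells. The highest Rorb levels were thus all in Bcl11b-negative cells, and the difference was -2.88 (-2.93), with the same sign in each of the 3 labelled groups that held both sides.

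Plxnd1, a semaphorin receptor of callosal neurons, had reads in 3 of 22 Bcl11b-positive and 7 of 12 Bcl11b-negative cells, a difference of -2.35 (-2.15 without the wild-type D2 cells, and -1.56 without the cells of 32 days). Lamp5, a lysosome-associated membrane protein placed on this list for upper-layer neurons, went against the list. It ranged from 0 to 1149.8 CPM with a median of 385 CPM in Bcl11b-positive cells, against 0 to 251 CPM with a median of 4.78 CPM in Bcl11b-negative cells. Its difference was 4.93, 3.93 without the wild-type D2 cells, and above 3 in each labelled group with both sides.

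Other transcription factors of projection neurons differed in both directions, with 2 of 18 measured higher and 2 lower, against 3.49% and 3.42% of all measured genes. Their median was -0.59, and -0.90 without the wild-type D2 cells, beside -0.36 for all genes. Nfib, a nuclear factor I protein, ranged from 2.00 to 1938 CPM with a median of 604 CPM in Bcl11b-positive cells, against 0 to 691 CPM with a median of 94.8 CPM in Bcl11b-negative cells, a difference of 3.58 (2.82 without the wild-type D2 cells). Its relative Nfia had reads in 21 of 22 and 6 of 12 cells and differed by 2.06 (2.01), by 1.57 without the cells of 29 days and by 3.11 without the cells of 32 days. Nr2f1 (COUP-TFI), an orphan nuclear receptor that restrains the corticospinal programme in somatosensory cortex, ranged from 0 to 76.7 CPM with a median of 1.64 CPM in Bcl11b-positive cells, against 0 to 219 CPM with a median of 76.6 CPM in Bcl11b-negative cells. It was lower in each labelled group with both sides, by 3.39 over all cells (difference -3.39, and -3.31 without the wild-type D2 cells). Neurod6, a helix-loop-helix factor of pyramidal neurons, differed by -2.11, by -3.07 without the wild-type D2 cells and by -1.33 without the cells of 32 days.

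Both sides carried the genes of glutamatergic pyramidal neurons. The 12 general pyramidal genes had a median difference of 0.08, with 0 higher and 1, Neurod6, lower, against 3.49% and 3.42% of all measured genes. Their median was -0.33 without the wild-type D2 cells, where 2 of 12 lay above 0, beside -0.36 and 37% for all measured genes. Of the layer 6 and near-projecting genes, 7 of 14 were measured with a median of -0.44, and Zfpm2, a GATA cofactor found in corticothalamic neurons, was higher by 2.24 (1.49 without the wild-type D2 cells). The layer 6 corticothalamic marker Ntsr1 had no read in the 22 Bcl11b-positive cells and reads in 2 of 12 Bcl11b-negative cells.

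**Figure D3:**
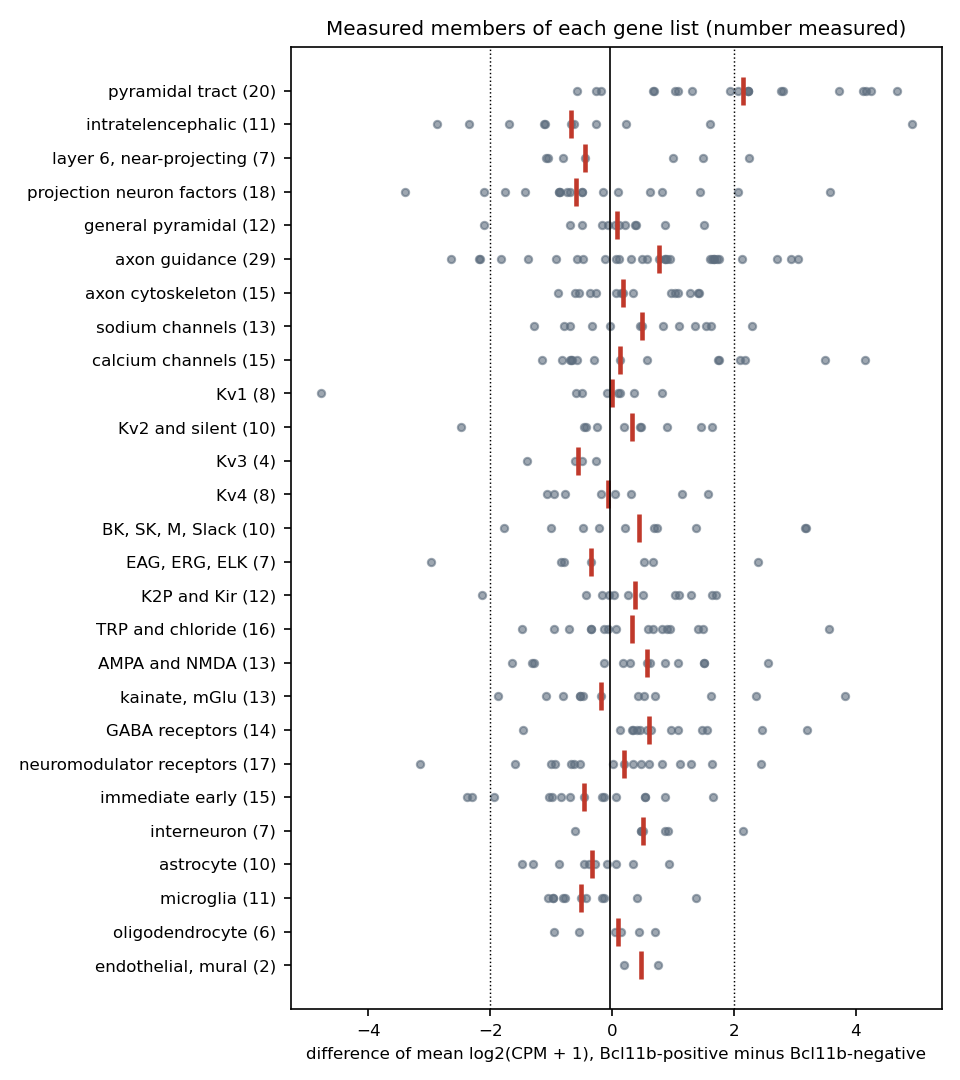
Difference of mean log2(CPM + 1), Bcl11b-positive minus Bcl11b-negative, of the measured genes of the lists shown; each dot is a gene, the red bar the list's median, dotted lines mark -2 and 2, and numbers in brackets give the genes measured. The pyramidal tract list has its median at 2.15, while most lists have theirs near the -0.03 of all measured genes.

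Ion channels as a list had a median near that of all measured genes, though a larger share of them than of all genes was higher. Of 121 listed channel genes 107 were measured, 11 were higher and 4 lower by at least 2 (416 or 3.49% and 407 or 3.42% of all measured genes), and the median was 0.14. Without the wild-type D2 cells 8 were higher and 8 lower, against 3% and 9.53% of all measured genes, and the median was -0.21, beside -0.36 for all genes.

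Genes linked to HCN channels differed in both directions. Pex5l encodes TRIP8b, the accessory protein that places HCN channels in dendrites. Pex5l ranged from 0 to 1055 CPM with a median of 338 CPM in Bcl11b-positive cells, against 0 to 189.5 CPM with a median of 14.5 CPM in Bcl11b-negative cells, a difference of 3.42 (2.46). Of the channel subunits, Hcn2 had reads in 15 of 22 Bcl11b-positive cells, up to 671 CPM with a median of 6.73 CPM, and in 6 of 12 Bcl11b-negative cells, up to 14.6 CPM, a difference of 1.68 (2.05). Hcn3 differed by -1.34 (-2.29).

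Among voltage-gated calcium channel genes 4 of 15 were higher and 0 lower, against 3.49% and 3.42% of all measured genes. The list median was 0.13, and -0.46 without the wild-type D2 cells, beside -0.36 for all measured genes. Cacna2d3, an auxiliary alpha2delta subunit, ranged from 0 to 955 CPM with a median of 188 CPM in Bcl11b-positive cells, against 0 to 181 CPM with a median of 1.19 CPM in Bcl11b-negative cells. It differed by 4.15, by 3.45 without the wild-type D2 cells and by at least 1.89 in each labelled group with both sides. The T-type subunits, which open at low voltage, were Cacna1h with reads in 18 of 22 and 5 of 12 cells and a difference of 3.50 (2.21 without the wild-type D2 cells), Cacna1g with 2.18 (0.59) and Cacna1i, which stayed under 2 at 1.76 (2.22). The R-type subunit Cacna1e differed by 2.09 (1.39) although its mean was 347 CPM in Bcl11b-positive and 377 CPM in Bcl11b-negative cells. It had a read in 22 of 22 and 9 of 12 cells, so its difference is one of presence.

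Of 13 sodium channel genes 1 was higher and 0 lower, against 3.49% and 3.42% of all measured genes. Scn1a, a pore subunit, ranged from 0 to 630 CPM with a median of 197 CPM in Bcl11b-positive cells, against 0 to 363 CPM with a median of 23.3 CPM in Bcl11b-negative cells. Its difference was 2.31 (2.53), above 2 in each labelled group with both sides, and 1.43 without the cells of 29 days.

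The potassium channel lists held the lowest difference of all measured channel genes. Kcnab1, a beta subunit that speeds inactivation of Kv1 channels, had a read in 12 of 12 Bcl11b-negative cells (100%, exact interval 73.5 to 100%) but in 6 of 22 Bcl11b-positive cells (27.3%, 10.7 to 50.2%). These intervals also treat cells as independent, and Kcnab1 was named for its difference in these same cells, so they are no test between the sides. Kcnab1 ranged from 0 to 62.7 CPM with a median of 0 in Bcl11b-positive cells, against 0.575 to 293 CPM with a median of 62.0 CPM in Bcl11b-negative cells. Its difference was -4.78, -5.46 without the wild-type D2 cells and between -6.59 and -4.13 in the labelled groups with both sides. The pore subunits Kcna1 at 0.83 (1.95), Kcna2 at 0.10 (-0.02) and Kcna4 at 0.36 (-0.84) did not follow it, and Kcna1 was the highest of its list. Of the 8 measured genes of the Kv1 list, Kcnab1 included, 4 lay above 0. Without the wild-type D2 cells 2 did, and the list's median was -0.79, beside -0.36 for all genes.

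Among calcium-activated and M-type potassium channels, Kcnn2 (SK2) ranged from 0 to 959 CPM with a median of 479.8 CPM in Bcl11b-positive cells, against 0 to 397 CPM with a median of 76.1 CPM in Bcl11b-negative cells, a difference of 3.19 (1.97 without the wild-type D2 cells). Kcnq5, an M-current subunit, had reads in 19 of 22 and 3 of 12 cells and differed by 3.17 (1.82), and by 2.07 without the cells of 32 days. Neither had 1 sign throughout, since knockout D1 cells differed by -0.92 for Kcnn2 and -0.64 for Kcnq5. In the EAG and ERG family, Kcnh7 (ERG3) differed by 2.40 (1.35, and 1.48 without the cells of 29 days) and Kcnh1 (EAG1) by -2.98 (-3.57).

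The silent subunit Kcnv1, which modifies Kv2 channels, had reads in 9 of 22 Bcl11b-positive and 9 of 12 Bcl11b-negative cells and differed by -2.48 (-3.25 without the wild-type D2 cells), and the 2-pore channel Kcnk4 (TRAAK) by -2.13 (-2.17), with 13.1% of its exon bases shared with Catsperz. The Kv2 pore subunit Kcnb2 differed by -0.42 (0.12). No gene of the Kv3 or Kv4 lists (4 and 8 measured) reached 2 in either direction, against 3.49% and 3.42% of all measured genes. All 4 Kv3 genes lay between -1.39 and -0.27. Trpc4, a receptor-operated cation channel, had reads in 14 of 22 and 2 of 12 cells and differed by 3.56, but by 1.36 without the wild-type D2 cells.

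**Figure D4:**
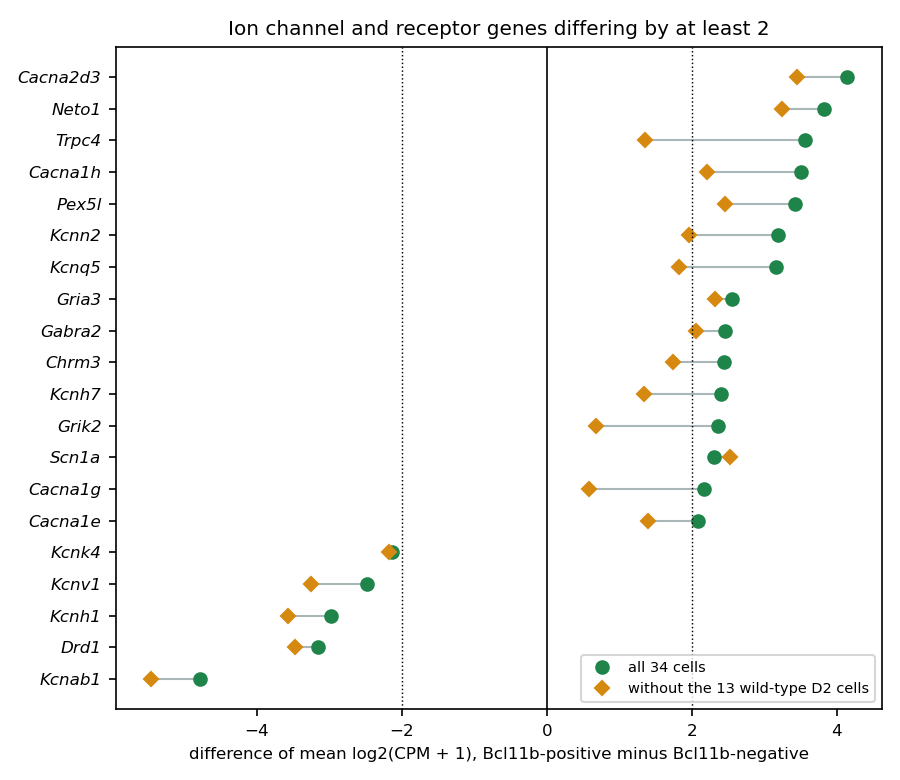
Ion channel, transmitter receptor and associated genes reported here whose difference of mean log2(CPM + 1), Bcl11b-positive minus Bcl11b-negative, reached 2 or -2 over all 34 cells (circles), with the same genes without the 13 wild-type D2 cells (diamonds); dotted lines mark -2 and 2. Every gene keeps its sign without those cells, but 8 of the 15 on the right fall under 2, among them Kcnn2, Kcnq5 and Trpc4.

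GABA receptor genes were above 0 in 13 of 14 cases, against 49% of all measured genes, with a median of 0.61, and 2 were higher by at least 2 and 0 lower, against 3.49% and 3.42% of all measured genes. Without the wild-type D2 cells 8 of 14 lay above 0 and the median was 0.22, beside 37% and -0.36 for all measured genes. Gabra2, a subunit of GABA-A receptors, ranged from 1.50 to 827 CPM with a median of 229.9 CPM in Bcl11b-positive cells, against 0 to 267 CPM with a median of 45.5 CPM in Bcl11b-negative cells. It differed by 2.46 (2.06 without the wild-type D2 cells), and the GABA-B subunit Gabbr2 lay lowest at -1.47 (-2.35).

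Of 26 measured glutamate receptor genes and auxiliary subunits, 3 were higher by at least 2 and 0 lower, against 3.49% and 3.42% of all measured genes. Without the wild-type D2 cells 1 of 13 AMPA and NMDA receptor genes was higher and 0 lower, with a median of 0.01. Of 13 kainate and metabotropic receptor genes 1 was then higher and 3 lower, with a median of -0.94. All measured genes had 3% higher, 9.53% lower and a median of -0.36 in that setting. Gria3, an AMPA receptor subunit, ranged from 6.49 to 2394 CPM with a median of 956 CPM in Bcl11b-positive cells, against 0 to 669.5 CPM with a median of 301 CPM in Bcl11b-negative cells. Its difference was 2.56, 2.33 without the wild-type D2 cells and at least 1.68 in each labelled group with both sides. Neto1, an auxiliary protein of kainate receptors, differed by 3.82 (3.25) with reads in 18 of 22 and 4 of 12 cells. The kainate receptor subunit Grik2 differed by 2.37, but by 0.68 without the wild-type D2 cells.

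Among receptors for neuromodulators 17 of 26 were measured, 1 was higher and 1 lower, against 3.49% and 3.42% of all measured genes. The muscarinic receptor gene Chrm3 differed by 2.45 (1.75 without the wild-type D2 cells), with reads in 17 of 22 Bcl11b-positive and 3 of 12 Bcl11b-negative cells. The dopamine D1 receptor gene Drd1 had reads in 1 of 22 Bcl11b-positive cells (4.55%, exact interval 0.115 to 22.8%) and in 6 of 12 Bcl11b-negative cells (50%, 21.1 to 78.9%), a difference of -3.15 (-3.47). Those 6 were 4 of 6 wild-type D1 cells, at up to 337 CPM, and both knockout D2 cells, at 29.8 and 78.3 CPM. Drd1 was thus found in Bcl11b-negative cells labelled D2 and in none of the 5 Bcl11b-positive cells labelled D1. The intervals for Drd1 treat cells as independent and are no test of a difference between the sides. Drd2 was read in 0 of 34 gene-rich cells, which allows up to 8.82% of cells with a Drd2 read.

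Axon guidance and adhesion genes differed in both directions. All 29 were measured, 20 lay above 0, against 49% of all measured genes, and 4 were higher and 3 lower, against 3.49% and 3.42% of all measured genes. The median was 0.78. Without the wild-type D2 cells it was -0.34 and 13 of 29 lay above 0, beside -0.36 and 37% for all measured genes. Robo1, a Slit receptor, ranged from 0 to 629 CPM with a median of 56.2 CPM in Bcl11b-positive cells, against 0 to 97.2 CPM with a median of 0 in Bcl11b-negative cells, a difference of 3.05 (2.22). The ligand gene Slit1 differed by -2.64 (-3.08, and -1.37 without the cells of 32 days). The ephrin receptor genes split, with Ephb1 at 2.94 (1.73) and Epha4 at -2.19 (-2.95). The semaphorin receptors also split, with the neuropilin Nrp1 at 2.13 (1.64, and 1.12 without the cells of 29 days) and the plexin Plxna4 at -2.16 (-2.90). Cdh13, a cadherin without a transmembrane segment, differed by 2.72 (1.18).

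Of 15 measured genes of the axonal cytoskeleton, known to be abundant in long-range neurons, 0 were higher and 0 lower by 2. The shares over all measured genes were 3.49% and 3.42%, so the list is too short to set 0 apart from them. The neurofilament genes Nefl, Nefm and Nefh differed by 1.28 (0.57), 1.43 (0.92) and 1.03 (0.04), and Ank3, the ankyrin of the axon initial segment, by 1.42 (1.26). Exons of Nefm overlap those of Nefl by 19.2%. Immediate early genes had a median of -0.45, with 0 of 15 higher and 2 lower, against 3.49% and 3.42% of all measured genes. Junb differed by -2.30 (-3.47 without the wild-type D2 cells, and -0.60 without the cells of 32 days) and Ier2 by -2.38 (-2.87).

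The largest differences outside the lists were taken from genes with the same sign in knockout D1, knockout D2 and wild-type D1 cells, which 2463 of 9213 eligible genes had (628 higher and 1835 lower). Sept4, a septin of the submembrane cytoskeleton, had reads in 21 of 22 Bcl11b-positive cells (0 to 1109 CPM, median 431 CPM) and in 3 of 12 Bcl11b-negative cells (up to 735 CPM). Its difference of 5.79 (4.73) was the largest of these, though it was 0.53 among knockout D1 cells. Khdrbs2, an RNA-binding regulator of splicing, differed by 4.57 (3.51 without the wild-type D2 cells). Coro6, an actin-binding coronin, had reads in 16 of 22 cells up to 688 CPM and in 1 of 12 cells at 9.53 CPM, a difference of 4.54 (3.54).

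Adcyap1 encodes the neuropeptide PACAP. It had reads in 19 of 22 Bcl11b-positive cells, with a median of 125 CPM, and in 4 of 12 Bcl11b-negative cells, and differed by 4.46 (4.92 without the wild-type D2 cells). The remaining named genes were the Integrator subunit Ints6 at 4.39 (4.16), the sorting receptor Sorcs1 at 4.34 (2.51), the oligosaccharyltransferase subunit Stt3b at 4.27 (3.86) and the anoctamin Ano4 at 4.21 (3.24). Of the 12 highest named genes, Igfbp4, Chst8 and Sorcs1 were thus smaller by the most without the wild-type D2 cells, and Adcyap1 was larger.

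On the other side, Il1rapl2, a synaptic adhesion protein of the interleukin 1 receptor family, had no read in any of 22 Bcl11b-positive cells, which allows a share of up to 13.6%. It had reads in 8 of 12 Bcl11b-negative cells, up to 234 CPM with a median of 73.1 CPM. In reads summed over cells, a floor of 3 counts puts it at least 2871-fold lower in Bcl11b-positive cells. That bound covers the counting of pooled reads only. It does not cover the share of cells that may carry the gene unseen, so it is no bound on the difference between the 2 kinds of cell. Fhl2 (a LIM-domain protein), Ncald (a neuronal calcium sensor) and Dgcr6 had reads in 12 of 12 Bcl11b-negative cells, and differed by -3.92, -3.81 and -3.76.

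The receptor phosphatase Ptprk differed by -4.67, with reads in 5 of 22 and 9 of 12 cells, the extracellular peroxidase Pxdn by -4.23, the anion exchanger Slc26a4 by -4.15, the molybdenum enzyme Marc2 by -4.13, the signalling ligand Wnt4 by -3.83 and the nucleotidase Nt5c by -3.82. Trbc2, the constant region of a T cell receptor chain, had reads in 4 of 22 Bcl11b-positive and 9 of 12 Bcl11b-negative cells and differed by -4.27. Without the wild-type D2 cells these 11 genes and Kcnab1 lay between -5.46 and -3.19.

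**Figure D5:**
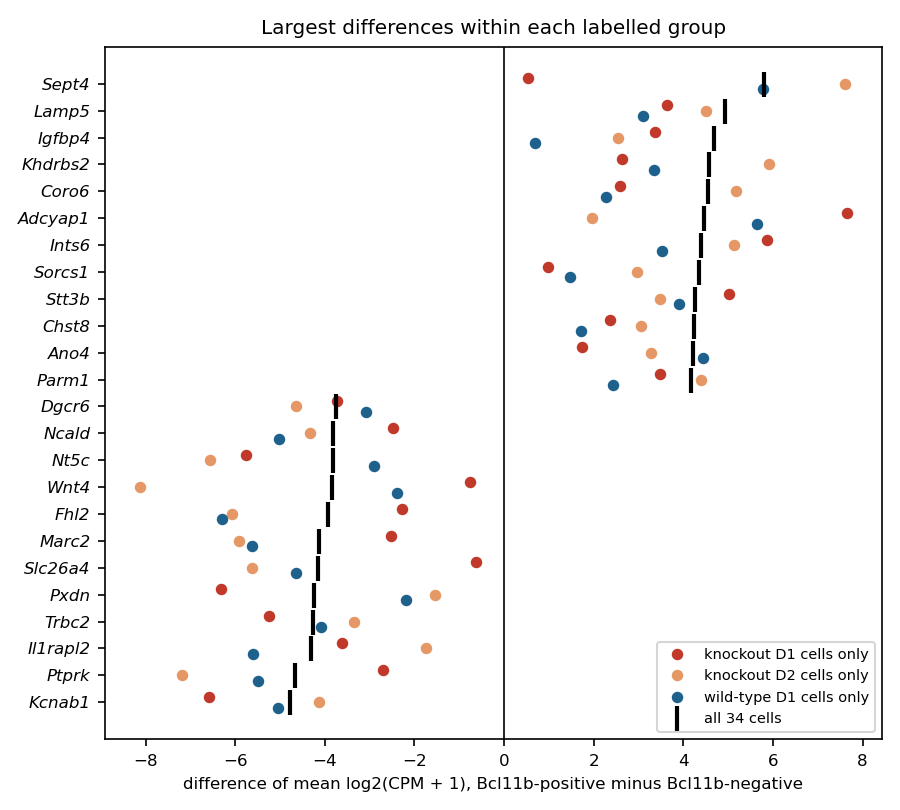
Difference of mean log2(CPM + 1), Bcl11b-positive minus Bcl11b-negative, of the 12 highest and 12 lowest named genes within knockout D1 (2 against 4 cells), knockout D2 (4 against 2) and wild-type D1 cells (3 against 6); bars give all 34 cells. The sign is shared by rule, but sizes vary, as for Sept4 with 0.53 in knockout D1 cells and 7.60 in those labelled knockout D2.

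Promoter sequences of 4 of these genes are shown because their differences are among the largest on each side: 3 that were higher in Bcl11b-positive cells and Kcnab1, which was lower. Each is the 250 bases before a RefSeq transcript start (build GRCm38.p6), without exon bases, written 5′ to 3′ on the gene's strand. Capitals mark TGACCA or its reverse complement TGGTCA, the letters bound by the related human protein BCL11A. Windows were also searched on both strands for AGGTCA, or its reverse complement TGACCT, the half-site of nuclear receptors such as Nr2f1, which resembles the first motif but cannot match the same letters, and none of the 4 held it. The windows lie at chr11:99040994-99041243 (plus strand, Igfbp4), chr7:34812712-34812961 (minus strand, Chst8), chr2:136057498-136057747 (plus strand, a second start of Lamp5) and chr3:65108764-65109013 (plus strand, a second start of Kcnab1). The Kcnab1 window shown is 1 of 3 without exon bases and was chosen because it holds the motif: the first, chr3:64948962-64949211, holds none and the third, chr3:65187853-65188102, holds 1. The window before the first start of Lamp5 overlaps exons by 100 bases and holds none.
Igfbp4: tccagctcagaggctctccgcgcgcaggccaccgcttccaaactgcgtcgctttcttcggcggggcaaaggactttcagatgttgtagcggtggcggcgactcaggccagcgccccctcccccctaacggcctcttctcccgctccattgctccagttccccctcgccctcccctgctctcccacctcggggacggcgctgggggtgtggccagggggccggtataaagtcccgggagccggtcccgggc
Chst8: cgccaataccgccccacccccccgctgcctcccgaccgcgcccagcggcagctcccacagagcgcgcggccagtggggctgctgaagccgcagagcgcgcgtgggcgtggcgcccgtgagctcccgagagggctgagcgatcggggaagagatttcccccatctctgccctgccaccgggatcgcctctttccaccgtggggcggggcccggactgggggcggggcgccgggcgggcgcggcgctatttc
Lamp5: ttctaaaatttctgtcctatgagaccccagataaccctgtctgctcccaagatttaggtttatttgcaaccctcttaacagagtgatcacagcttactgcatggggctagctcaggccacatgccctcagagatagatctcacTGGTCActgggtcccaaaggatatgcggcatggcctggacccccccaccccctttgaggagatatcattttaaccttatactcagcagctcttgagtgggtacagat
Kcnab1: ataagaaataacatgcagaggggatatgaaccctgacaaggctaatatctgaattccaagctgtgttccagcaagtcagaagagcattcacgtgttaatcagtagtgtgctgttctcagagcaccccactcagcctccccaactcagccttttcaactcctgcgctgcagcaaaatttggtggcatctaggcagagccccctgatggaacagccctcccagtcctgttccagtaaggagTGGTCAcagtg

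Lamp5 and Kcnab1, which differ in opposite directions, each hold TGGTCA in these windows, and Igfbp4 and Chst8 hold neither form. Of 32851 RefSeq windows of the same length, 11.4% hold TGACCA on either strand and 14% hold AGGTCA. Windows were found for 68 of the 95 named genes, 90 windows in all. TGACCA was in 2 of 18 windows of the 12 highest genes (11.1%) and in 4 of 15 windows of 10 of the 12 lowest (26.7%), and AGGTCA in 1 of 18 and 1 of 15. Both Kcnab1 windows that hold TGACCA are among those 4, so starts of 1 gene count more than once. A match is a run of letters and not a binding site.

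Markers of other cells were measured beside these results. Summed interneuron markers ran from 0.311 to 490.4 CPM with a median of 67.9 CPM in Bcl11b-positive cells, against 0 to 174 CPM with a median of 0.336 CPM in Bcl11b-negative cells. Of 13 listed interneuron genes 7 were measured and 6 lay above 0, against 49% of all measured genes. Of the 7, 1 was higher and 0 lower by 2, against 3.49% and 3.42%. The higher gene was Reln, at 2.14 (0.94 without the wild-type D2 cells). Gad1, which makes GABA, had reads in 10 of 22 Bcl11b-positive and 3 of 12 Bcl11b-negative cells, with medians of 0, and Dlx2 and Dlx5 had none in any of the 34. Summed microglial markers ran from 0.454 to 10595 CPM (median 263 CPM) in Bcl11b-positive and from 0.319 to 4103 CPM (median 668 CPM) in Bcl11b-negative cells. Summed astrocyte markers ran from 86.9 to 7993 CPM (median 639 CPM) in Bcl11b-positive and from 8.93 to 2573 CPM (median 711 CPM) in Bcl11b-negative cells. Summed oligodendrocyte markers ran from 0 to 13691 CPM (median 275 CPM) in Bcl11b-positive and from 28.5 to 2476 CPM (median 414 CPM) in Bcl11b-negative cells. The vascular markers Cldn5, Flt1 and Slco1a4 had no read in any of the 34 cells. No gene of the astrocyte, microglia, oligodendrocyte or vascular lists reached 2 in either direction, against 3.49% and 3.42% of all measured genes. The highest astrocyte, microglial, oligodendrocyte and interneuron sums of the Bcl11b-positive cells were all in wild-type D1 cell 10, which also had the fewest symbols with a read, 4266. Without it the highest sums of the 21 other Bcl11b-positive cells were 2265, 4983, 2824 and 459 CPM, 511 genes were higher and 355 lower, and the pyramidal tract median was 2.24. The part of these markers in the differences above was not tested.

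Measures of RNA quality differed in range more than in median. Reads of the ribosomal RNA gene Rn18s-rs5 made up 0.349 to 19.95% of counts in Bcl11b-positive cells with a median of 1.88% and a mean of 3.77%, against 0.638 to 2.84% with a median of 1.54% and a mean of 1.57% in Bcl11b-negative cells. Mitochondrial genes made up 0.0408 to 16.6% of counts with a median of 1.73% in Bcl11b-positive cells, against 0.201 to 6.01% with a median of 2.03% in Bcl11b-negative cells. The highest shares of both were in Bcl11b-positive cells, and their part in the differences above was not tested.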

How the data were processed

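Each sample was 1 neuron, and its total RNA was made into a Nextera XT library, per the labels' protocols. The submitters' processing notes name Trimmomatic, STAR, featureCounts and the build GRCm38; settings and the use of strand were not given there. Read counts, as deposited, are whole numbers for 22800 gene symbols. The authors' deposited normalized signal table (14067 symbols) holds those counts times 1 factor per cell (0.373 to 51.5) and served as an alternative. Values of 2 columns that match no sample were not used.

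CPM were computed from each cell's total over genes and compared as mean log2(CPM + 1), which understates differences of genes with few reads. Members, the 28 gene lists and the rule for named genes were chosen with earlier results of these data known. The rule takes genes that on 1 side average at least 10 CPM with reads in 33.3% or more of its cells, leaves out mitochondrial and unnamed genes, and names the 12 largest differences per direction with the same sign in each labelled group holding at least 2 cells of each side. It adds all measured pyramidal tract genes, Fmr1, and of each other list the genes past 2 or the top 2. The text also names other list members, chosen after their values were seen. Some genes that the rule names are left out.

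To look for repeated libraries, cells were compared in pairs: the highest Spearman correlation between any pair of gene-rich cells was 0.74 and the median 0.56. Gene positions came from GENCODE vM21 (GRCm38) and promoters from RefSeq. Differences computed this way were also checked on simulated counts. Python 3.11.15, numpy 2.4.6, pandas 2.3.3, scipy 1.17.1 and matplotlib 3.10.9 were used, with TMM factors from edgeR 4.0.16 in R 4.3.3. Alternatives covered the Bcl11b threshold, the minimum of symbols, pseudocount, scaling, depth, filter, genotype, kind, age and each cell.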

Additional observations from a re-analysis of the deposited data

Results flagged for a closer look

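Among 10 sets of 4 to 10 cells of 1 label and side examined for a cell far from the rest, 4 values stood apart by Dixon's criterion. Its nominal chance rate is about 1 of 20 sets. That rate takes cells as independent and need not hold in sets with many values of 0. The flags point to cells to look at and are no test. Bcl11b was 6.81 CPM in Bcl11b-negative wild-type D1 cell 12 and 0 in the other 5 of its set, a set itself formed by Bcl11b below 10 CPM. Pou3f1 was 368 CPM in Bcl11b-negative wild-type D1 cell 15, above every other gene-rich cell. Fezf2 was 0 in Bcl11b-negative knockout D1 cell 1 and 0 in Bcl11b-negative wild-type D1 cell 13, while the other cells of both sets had reads.

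Among the 20 passed cells with too few symbols to enter the comparison, 6 held at least 10 CPM of Bcl11b. These were the 1 knockout D2 cell, at 502 CPM, and 5 of 13 wild-type D2 cells, at up to 679 CPM; none of 6 wild-type D1 cells did, with a highest value of 2.55 CPM. The single cell that failed quality control, a knockout D1 cell, had no read of Bcl11b.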

How the results depend on the processing

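No paired analysis was possible because the cells share no animal or replicate label and no test was made. The counts moved most. Genes higher in Bcl11b-positive cells numbered 416, and 1125 with no minimum of symbols, 40 with a pseudocount of 10, 842 with the authors' normalized values, 1166 from summed counts, 1173 in wild-type, 684 in knockout and 1817 in D2 cells only, and 1099 without the cells of 32 days. Genes lower numbered 407, and in the same order 8, 30 and 776, then 648 in wild-type, 1881 in knockout, 1692 in D1 and 2188 in D2 cells only, 1429 as the mean within labelled groups, 799 without the cells of 29 days, 705 without those of 32 days and 1134 without the wild-type D2 cells. The median over all genes was 0.74 with no minimum of symbols and -0.55 in knockout cells only, and the pyramidal tract median 0.96 from summed counts and 0.77 in D1 cells only. The cause of these shifts was not tested, and leaving out the cells of 32 days also leaves out nearly all knockout cells. Leaving out each cell in turn gave 385 to 515 genes higher, 355 to 472 lower, and medians of -0.07 to 0.05 (all genes), 1.80 to 2.27 (pyramidal tract), -0.89 to -0.39 (intratelencephalic) and 0.03 to 0.26 (ion channels).

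Of 71 named genes with a difference of at least 2 in size, 8 took the opposite sign or 0 in at least 1 of 58 settings (9 of 4118 values). In D1 cells only, Fezf2 was -0.65, Kcnq5 -0.29, Grik2 -0.13, Nrp1 -0.41 and Reln 0; Reln was also -0.023 as the mean within labelled groups. Cacna1g was -0.090 in knockout cells only. With no minimum of symbols, Epha4 was 0.29 and Junb 0.48. Many of the 58 settings leave out only 1 cell, and none is limited to 1 label of genotype and kind. Within 1 label more of the 71 changed sign. Among them were Npr3 at -1.91 and Zfpm2 at -0.66 in knockout D1 cells. Trpc4 was -0.53 and Cdh13 -0.05 in knockout D2 cells, and Ntng1 was -1.28 in wild-type D1 cells. Leaving out 1 cell took 19 of the 71 under 2 in size, through 1 to 17 cells each, with these values nearest 0. Without wild-type D1 cell 1, Ntng1 was 1.92, Scn1a 1.91, Cacna1e 1.58, Cacna1g 1.82, Kcnh7 1.92, Gria3 1.93 and Grik2 1.91. Without wild-type D1 cell 7, Kcnk4 was -1.64 and Epha4 -1.84; without cell 13, Fezf2 1.79 and Crym 1.48; without cell 12, Neurod6 -1.85. Without wild-type D2 cell 24, Reln was 1.89 and Zfpm2 1.98; without cell 18, Fam84b 1.97; without cell 7, Nfia 1.88. Without knockout D1 cell 1, Plxnd1 was -1.92, without knockout D1 cell 2, Plxna4 -1.83, and without knockout D2 cell 4, Nrp1 1.94. Beside the ages given with the genes, the nearest were 1.63 for Cacna1g, 1.87 for Cdh13, 1.94 for Chrm3, 1.94 for Grik2 and 1.95 for Ntng1 without the cells of 29 days, -1.66 for Kcnk4 without those of 30, -1.52 for Epha4 and -1.99 for Kcnv1 without those of 31, 1.56 for Cacna1e and -1.68 for Plxna4 without those of 32, and 1.89 for Reln and 1.98 for Zfpm2 without those of 35 days. With reads thinned to the smallest total, 419 genes were higher and 411 lower, against 416 and 407. A gene at 0 in a cell may still have been missed in 1 cell's cytosol, which was not tested.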

Other observations

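The 20 passed cells with fewer than 4000 symbols allow the same division, with 6 cells at or above 10 CPM of Bcl11b and 14 below it. Of the pyramidal tract genes examined there besides Bcl11b, all but Crym lay below 0, most with few reads on either side. Fezf2 had reads in 0 of 6 Bcl11b-positive and 1 of 14 Bcl11b-negative cells (difference -0.78), Pou3f1 in 3 of 6 and 6 of 14 (-0.25), and Igfbp4 in 3 of 6 and 8 of 14 (-1.68). Chst8 had reads in 0 of 6 and 2 of 14 cells (-0.60), Parm1 in 2 of 6 and 2 of 14 (-0.25), and Npr3 in 0 of 6 and 2 of 14 (-0.08). Crym had reads in 3 of 6 Bcl11b-positive and 4 of 14 Bcl11b-negative cells, a difference of 2.43. Of the intratelencephalic list, Lamp5 differed by 1.47 with reads in 4 of 6 and 7 of 14 cells. Rorb had reads in 2 of 6 Bcl11b-positive and 12 of 14 Bcl11b-negative cells, a difference of -1.80. Kcnab1 had a read in 0 of 6 and 1 of 14 cells, too few to set the sides apart.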
